A study of Mus musculus with 9 samples.

Results

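The 9 genes described here encode plasma proteins of innate immunity and clotting, read as transcripts in mouse pancreas. They are the complement components C3, C4b, C2 and Cfb, the complement inhibitor Serping1, the fibrinogen chains Fga, Fgb and Fgg, and the lipopolysaccharide-binding protein Lbp. They were chosen by name, as 9 of the 17132 genes in the deposited table, and all 9 passed the filter on low counts that left 12828 genes for testing. Bulk pancreas of C57BL/6 mice weighing 22 to 25 g was sequenced after selection of polyadenylated RNA, with 3 mice in each of 3 groups and 1 library per mouse; age and sex are not given in the sources used here. Control mice (libraries 43, 44 and 45) received saline. Model mice (56, 57 and 59) received caerulein, a peptide that overstimulates the enzyme-secreting acinar cells, in 7 hourly doses into the abdomen with lipopolysaccharide (LPS, a component of bacterial outer membranes) at the last dose, and saline in place of the decoction. QYD mice (65, 66 and 68) received caerulein and LPS in the same way, and were also dosed with the herbal Qingyi Decoction at 0 h and 8 h. The pancreas of all groups was collected at 24 h. The decoction is abbreviated QYD in the titles and differently in the treatment labels, and the titles are followed here. The labels name no transgene or deleted gene in any group, and the model rests on repeated dosing of otherwise intact mice. The labels name each library by mouse, and the p-values measure only the spread between these libraries.

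Complement is a cascade of plasma proteases that marks microbes and damaged cells. The classical pathway cuts C4 and C2 to form its C3-cutting enzyme, the alternative pathway uses factor B (Cfb) for the same step, and the C1 inhibitor (Serping1) blocks the proteases that start the classical and lectin pathways. Fibrinogen is assembled from the α, β and γ chains (Fga, Fgb, Fgg) and is turned by thrombin into the fibrin of a clot. LPS-binding protein carries LPS to CD14 and the TLR4 receptor. The liver makes most of the plasma pool of these proteins, and their genes are known targets of the acute-phase response driven by IL-6, IL-1 and, for several complement genes, interferon-gamma. Many other cell types, among them macrophages, fibroblasts and epithelial cells, also transcribe complement genes.

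In these libraries the 9 genes fell into 3 patterns. Cfb, Lbp, Fga, Fgb and Fgg were higher in Model than in Control, and Cfb, Lbp and Fga were also higher in QYD than in Control. C3 and Serping1 gave positive differences that did not pass the test on the scale used here. C4b and C2 did not follow Cfb in the comparisons with Control on that scale. The C4b count was 34.6 to 54.8% of the C3 count in Control libraries and 11.3 to 17.2% in all 6 libraries of caerulein-treated mice. No gene of the 9 passed the test between QYD and Model.

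All coordinates are of build GRCm38.p6. C4b (chr17:34728139-34743902, minus strand), Cfb (chr17:34856374-34862514, minus strand) and C2 (chr17:34862602-34882100, minus strand) lie close together on chromosome 17, and 87 bases separate Cfb from C2. C3 (chr17:57203967-57228136, minus strand) is farther along the same chromosome. The fibrinogen chains stand side by side on chromosome 3: Fgg (chr3:83007724-83015056, plus strand), Fga (chr3:83026153-83033627, plus strand) and Fgb (chr3:83042246-83049863, minus strand), with 11096 bases between Fgg and Fga and 8618 between Fga and Fgb. Serping1 (chr2:84765360-84775444, minus strand) and Lbp (chr2:158306493-158332852, plus strand) are on chromosome 2. All 9 are annotated as protein-coding.

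The promoters of the fibrinogen chains are shown because these 3 neighbouring genes were detected together in the same libraries, and that of C3 because it is the only complement gene of the 9 with a RefSeq window. Each sequence is the 250 bases before the RefSeq start on GRCm38.p6, written 5′ to 3′ on the strand of the gene, with matches to the searched motifs in capitals. Windows were matched for 4 of the 9 genes.
Fga (chr3:83025903-83026152, plus strand): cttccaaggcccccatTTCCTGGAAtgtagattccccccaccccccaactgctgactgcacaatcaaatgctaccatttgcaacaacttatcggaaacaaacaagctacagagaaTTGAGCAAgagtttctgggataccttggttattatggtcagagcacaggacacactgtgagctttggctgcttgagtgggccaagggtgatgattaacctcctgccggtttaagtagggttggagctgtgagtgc
Fgb (chr3:83049864-83050113, minus strand): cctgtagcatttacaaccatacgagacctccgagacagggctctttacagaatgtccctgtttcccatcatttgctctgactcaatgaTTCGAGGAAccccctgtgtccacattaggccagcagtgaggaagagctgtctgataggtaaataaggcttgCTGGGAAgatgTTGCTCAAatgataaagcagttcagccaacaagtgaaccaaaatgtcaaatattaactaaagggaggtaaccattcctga
Fgg (chr3:83007474-83007723, plus strand): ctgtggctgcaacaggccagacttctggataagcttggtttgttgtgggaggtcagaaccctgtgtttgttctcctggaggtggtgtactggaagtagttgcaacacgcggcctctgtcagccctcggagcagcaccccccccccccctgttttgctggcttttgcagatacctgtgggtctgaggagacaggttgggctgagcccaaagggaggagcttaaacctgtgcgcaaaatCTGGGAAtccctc
C3 (chr17:57228137-57228386, minus strand): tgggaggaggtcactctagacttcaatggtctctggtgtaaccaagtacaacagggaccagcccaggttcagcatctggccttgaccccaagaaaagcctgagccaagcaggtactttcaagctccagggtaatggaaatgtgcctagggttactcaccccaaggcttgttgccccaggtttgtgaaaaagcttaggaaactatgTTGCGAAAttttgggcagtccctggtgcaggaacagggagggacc

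The motifs were searched on both strands as 9 patterns: TTCNNNGAA (STAT type), TTGCNNAA (C/EBP type), CTGGGAA (IL-6 type), TATAAA, and by name only 2 NF-kB type patterns, 2 HNF1 type patterns and 1 interferon response type pattern. Fga held TTCNNNGAA from 234 to 226 bases before the start and TTGCNNAA, read on the other strand, from 135 to 128. Fgb held TTCNNNGAA from 162 to 154, CTGGGAA from 91 to 85 and TTGCNNAA from 80 to 73 bases before the start. Fgg held only CTGGGAA, from 13 to 7 bases before the start, and C3 held only TTGCNNAA, from 45 to 38. No match overlapped another, and the other 6 patterns had none in these 4 windows. These motifs are common: TTCNNNGAA occurs in 7.02%, TTGCNNAA in 9.56% and CTGGGAA in 9.1% of 32851 RefSeq windows of the same length, so a match is a description of the letters only.

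Libraries held 19112923 to 20212744 estimated counts. They differed in composition, because the 50 most abundant genes took 90.6 to 91.1% of counts in Control, 64.6 to 70.2% in Model and 65.6 to 71.9% in QYD. Levels are therefore given as CPM (counts scaled to library size) after TMM normalisation, called the TMM scale here, which sets the typical gene equal between libraries. Plain library totals put the median log2 fold change 2.15 above its TMM value for Model against Control, and 2.03 above it for QYD against Control. The 9 genes together took 0.0141, 0.0105 and 0.0146% of counts in Control 43, 44 and 45. They took 0.0679, 0.164 and 0.0796% in Model 56, 57 and 59, and 0.114, 0.0753 and 0.0400% in QYD 65, 66 and 68. Without the 50 most abundant genes the shares were 0.112 to 0.159% in Control, 0.192 to 0.470% in Model and 0.142 to 0.330% in QYD, and the QYD range overlapped that of Control. In bulk tissue, more RNA per cell and more cells of a type cannot be told apart.

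Ordered per length, by the deposited FPKM within each library, C3 was the highest of the 9 in all 9 libraries. C3 had 13.3 to 22.0 FPKM in Control, 98.4 to 222 in Model and 54.7 to 166 in QYD, and FPKM is scaled to library totals. Serping1 came next in the 3 Control libraries, followed by C4b in Control 43 and 44 and by Cfb in Control 45. In all 6 libraries of caerulein-treated mice Cfb was above Serping1 and Serping1 above C4b. C2 and Lbp exchanged places between libraries: C2 was above Lbp in the 3 Control libraries, Model 57 and QYD 65, and below it in the other 4. The fibrinogen chains were lowest in every library, at 0 to 0.19 FPKM in Control, 0.83 to 3.20 in Model and 0.58 to 1.77 in QYD, and their order among themselves changed from library to library.

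**Figure D1:**
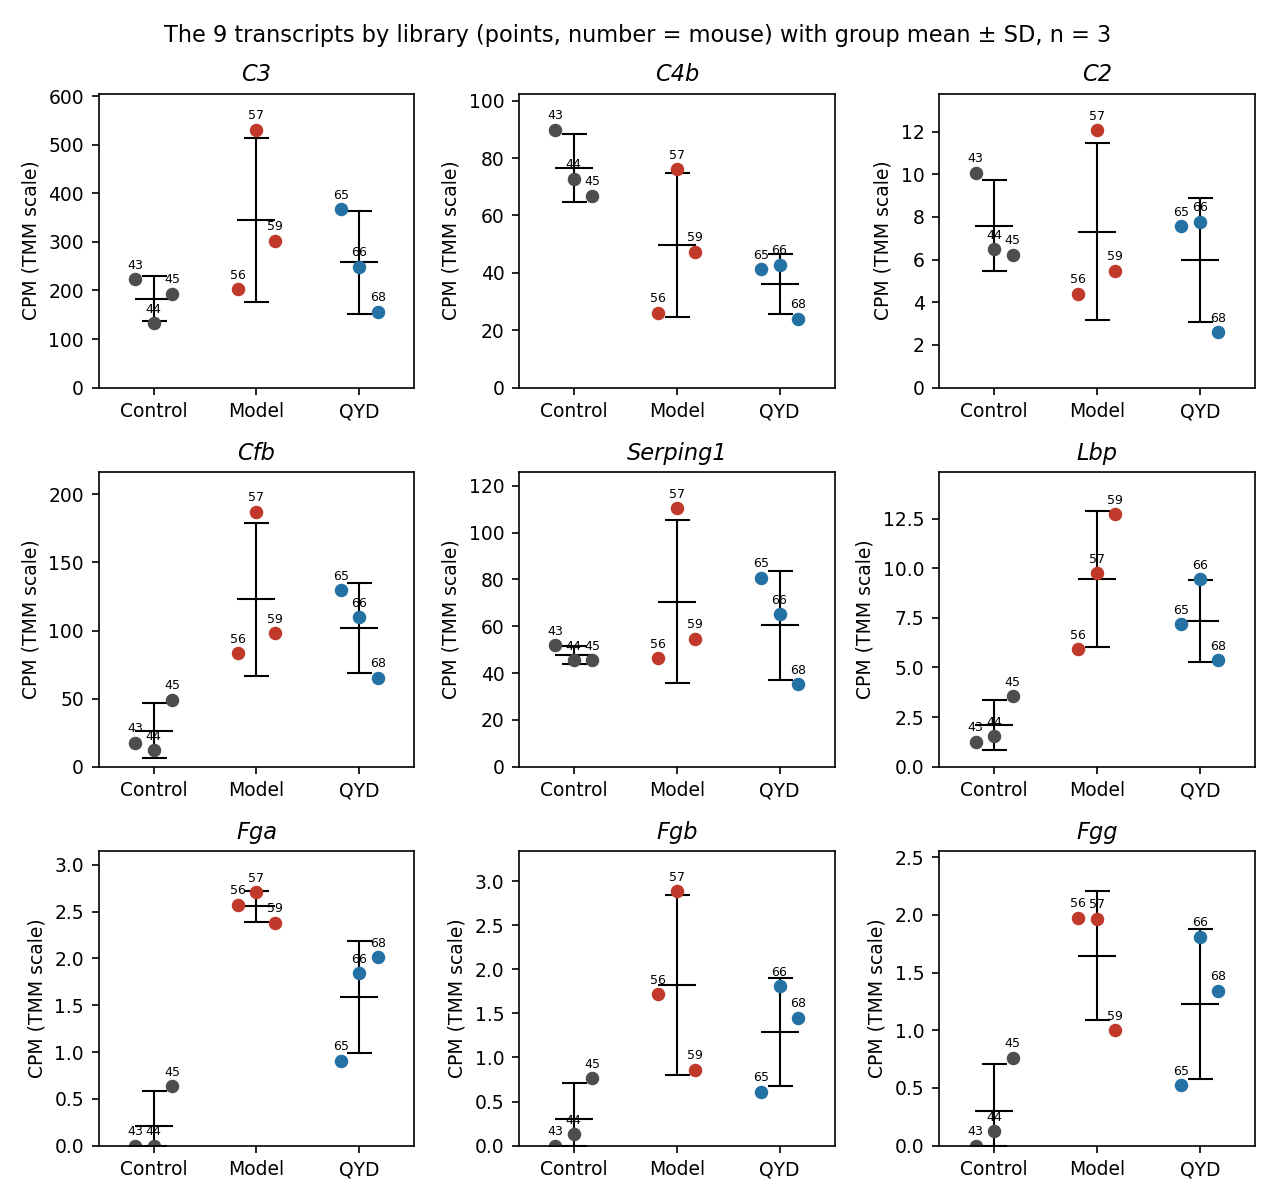
Level of each of the 9 transcripts in CPM on the TMM scale (vertical axis, 1 panel per gene, each starting at 0), with 1 point per library and the mean and SD (n = 3 mice) of Control, Model and QYD as horizontal and capped lines, with bars ending at 0 where the SD exceeds the mean. Cfb, Lbp and Fga are above all Control libraries in every Model and QYD library, Model 57 is the highest of the 6 Model and QYD libraries for the 5 complement genes, and Control 45 is the highest Control library for Cfb, Lbp and the fibrinogen chains.

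The first comparison, Model versus Control, asks what caerulein with LPS changed. In edgeR (quasi-likelihood test, p-values adjusted by Benjamini-Hochberg over all tested genes) 5 of the 9 genes were higher and none was lower. Of all 12828 genes, 21.3% were higher and 21.3% were lower by the same rule. The median log2 fold change of the 9 was 2.14 and that of all tested genes 0.04. The fibrinogen chains had 0 to 6 counts in Control, so they passed the low-count filter by their levels in caerulein-treated mice. That left little room for a lower call of these chains. With at least 5 CPM in 3 libraries, which dropped the chains, the median of the other 6 genes was 0.73. The ranges of the groups did not overlap for the same 5 genes, against 27.4% of all genes with a higher range free of overlap and 24.9% with a lower one.

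Cfb, the factor B protease of the alternative pathway, is given first. It had 17.6, 11.97 and 49.3 CPM in Control 43, 44 and 45, then 83.2, 187 and 98.0 CPM in Model 56, 57 and 59, and 130, 110 and 65.5 CPM in QYD 65, 66 and 68. All 6 libraries of caerulein-treated mice were above all Control libraries, and Control 45 stood above the other Control libraries. The log2 fold change was 2.22 ± 0.49 (SE; adjusted p = 0.0041, edgeR) in Model versus Control, a 4.66-fold difference between means of 26.3 ± 20.1 and 123 ± 56.4 CPM (SD, n = 3). Without Control 45 it was 3.06, and without Model 57 it was 1.78. In QYD versus Control it was 1.95 ± 0.49 (adjusted p = 0.0086, edgeR).

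C3, the protein on which all complement pathways converge, was the most abundant of the 9. It had 223, 133 and 193 CPM in Control 43, 44 and 45, then 202, 530 and 302 CPM in Model 56, 57 and 59, and 367, 249 and 157 CPM in QYD 65, 66 and 68. Model 56 and QYD 68 lay within the Control range and the other 4 libraries of caerulein-treated mice lay above it. The log2 fold change was 0.91 ± 0.37 (adjusted p = 0.067, edgeR) in Model versus Control and 0.49 ± 0.37 (adjusted p = 0.30, edgeR) in QYD versus Control, and neither passed. The first of these passed under 5 other settings: DESeq2 (0.92, adjusted p = 0.033), no filter on low counts (0.97, adjusted p = 0.039), without Model 56 (1.19, adjusted p = 0.023), without QYD 68 (0.92, adjusted p = 0.046) and library totals without the 50 most abundant genes (1.21, adjusted p = 0.020). It also passed on plain library totals and in limma on FPKM, as stated for all 9 genes below.

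Serping1, the C1 inhibitor, had 52.0, 45.6 and 45.5 CPM in Control 43, 44 and 45, then 46.4, 110 and 54.7 CPM in Model 56, 57 and 59, and 80.7, 65.1 and 35.2 CPM in QYD 65, 66 and 68. The Control libraries lay close to each other, and the libraries of caerulein-treated mice spread to both sides of them. The log2 fold changes of 0.56 ± 0.34 (adjusted p = 0.20, edgeR) in Model and 0.34 ± 0.34 (adjusted p = 0.45, edgeR) in QYD, both versus Control, did not pass.

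C4b, the classical and lectin pathway component C4, was the only one of the 9 with a lower call. It had 89.9, 72.8 and 66.9 CPM in Control 43, 44 and 45, then 26.1, 76.0 and 47.4 CPM in Model 56, 57 and 59, and 41.4, 42.8 and 24.1 CPM in QYD 65, 66 and 68. All 3 QYD libraries and 2 of the 3 Model libraries were below all Control libraries, and Model 57 was inside the Control range. The log2 fold change was -1.08 ± 0.34 (adjusted p = 0.024, edgeR) in QYD versus Control, and -0.62 ± 0.33 (adjusted p = 0.16, edgeR) in Model versus Control. Without Model 57 the second was -1.06 and passed (adjusted p = 0.018). The call in QYD was lost without Control 43 (-0.95, adjusted p = 0.077), without Control 44 (-1.11, adjusted p = 0.054), without QYD 68 (-0.86, adjusted p = 0.082) and on library totals without the 50 most abundant genes (-0.79, adjusted p = 0.072). On plain library totals the direction turned, to log2 fold changes of 1.54 in Model and 0.99 in QYD versus Control.

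C2, the protease that acts with C4, was the lowest of the complement genes. It had 10.1, 6.49 and 6.23 CPM in Control 43, 44 and 45, then 4.41, 12.1 and 5.48 CPM in Model 56, 57 and 59, and 7.57, 7.77 and 2.61 CPM in QYD 65, 66 and 68. The 3 groups overlapped. Its log2 fold changes of -0.05 ± 0.46 in Model and -0.33 ± 0.47 in QYD versus Control (adjusted p = 0.95 and 0.60, edgeR) did not pass, and their 95% intervals ran from -1.06 to 0.97 and from -1.36 to 0.70. On plain library totals the log2 fold changes were 2.12 and 1.75.

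Reads of 3 complement genes may be shared with other gene models. In the GENCODE M21 transcripts, 34.6% of the 50-base stretches of C4b also occur in C4a, a neighbour 65189 bases away that RefSeq lists as a transcribed pseudogene. C4a had at most 4 counts in any library, against 526 to 2554 for C4b. Of the stretches of C2, 38.7% occur in the overlapping model Gm20547, and of those of Cfb 73%. Gm20547 was not analysed here, and the way the authors' counting divided such reads was not given in the sources used here, so the counts of C4b, C2 and Cfb are uncertain to that extent. The stretches of C3, Serping1, Fga, Fgb and Fgg were all found in no other gene, and 99.8% of those of Lbp.

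Lbp, the LPS carrier, had 1.26, 1.53 and 3.56 CPM in Control 43, 44 and 45, then 5.92, 9.74 and 12.7 CPM in Model 56, 57 and 59, and 7.19, 9.45 and 5.36 CPM in QYD 65, 66 and 68. Every library of caerulein-treated mice was above every Control library, and Control 45 was the highest Control. Unlike the complement genes, Lbp was highest in Model 59. The log2 fold change was 2.14 ± 0.41 (adjusted p = 0.0018, edgeR) in Model and 1.78 ± 0.41 (adjusted p = 0.0059, edgeR) in QYD versus Control, or 4.41-fold and 3.43-fold.

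The fibrinogen chains were close to absent from Control libraries. Fga, the α chain, had 0, 0 and 5 counts in Control 43, 44 and 45, then 90, 91 and 69 counts in Model 56, 57 and 59, and 31, 55 and 54 counts in QYD 65, 66 and 68. Fgb, the β chain, had 0, 1 and 6 counts in Control, then 60, 97 and 25 in Model and 21, 54 and 39 in QYD, in the same library order. Fgg, the γ chain, had 0, 1 and 6 counts in Control, then 69, 66 and 29 in Model and 18, 54 and 36 in QYD. All 3 chains were highest among Controls in Control 45, and QYD 65 was the lowest of the 6 libraries of caerulein-treated mice for each. No library held more than 97 counts of a chain, and a count of 0 allows up to 3 counts in that library (counting error only).

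On the TMM scale Fga had 0, 0 and 0.64 CPM in Control, 2.58, 2.71 and 2.38 CPM in Model and 0.91, 1.84 and 2.01 CPM in QYD. The 3 groups did not overlap. Its log2 fold change was 3.52 ± 0.70 (adjusted p = 0.0023, edgeR) in Model and 2.82 ± 0.74 (adjusted p = 0.011, edgeR) in QYD versus Control. Summed over libraries, the Model to Control ratio of Fga counts on that scale was 11.7, with an exact 95% binomial interval of 4.96 to 36.4 for counting error.

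The β and γ chains passed in Model only. The log2 fold changes versus Control in Model were 2.57 ± 0.84 for Fgb (adjusted p = 0.029, edgeR) and 2.42 ± 0.79 for Fgg (adjusted p = 0.029, edgeR). In QYD they were 2.05 ± 0.87 (adjusted p = 0.080) and 1.98 ± 0.81 (adjusted p = 0.073) by the same test, and QYD 65 lay below Control 45 for both. The difference between the 2 contrasts is the QYD versus Model comparison below, in which neither chain passed. Both Model calls were lost without Control 43 (adjusted p = 0.092 for Fgb and 0.089 for Fgg), without Control 44 (0.106 for each) and without Model 57 (0.076 and 0.058), and that of Fgg also without Model 56 (0.063). Both QYD contrasts passed with DESeq2 (0.034 and 0.035), without QYD 65 (0.048 and 0.033) and without Control 45 (0.030 and 0.021), and on library totals without the 50 most abundant genes (0.043 and 0.038).

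Control 45 supplied nearly all fibrinogen counts of the Control group. It was 2.80 times the higher of the other Control libraries for Cfb, 2.33 times for Lbp and 5.99 times for Fgb and Fgg (CPM, TMM scale), and it held all 5 Control counts of Fga. For C3, C4b, C2 and Serping1 it was 0.87, 0.74, 0.62 and 0.88 times the higher of the other Control libraries. Of all tested genes, 7.33% were more than 1.5 times both other Control libraries in Control 45. Summed neutrophil markers were also highest there among Controls, at 40.8 CPM against 16.1 and 10.1, and summed LPS recognition genes at 70.0 against 39.7 and 32.1. So were the islet, duct, coagulation, complement regulator and IL-6 sums. The other sums were not, among them that of macrophage and monocyte markers, at 117 CPM against 163 in Control 43. The part of these in the 5 genes was not tested.

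Over the 9 fits with 1 library left out, the lowest Model to Control log2 fold changes were 1.78 for Cfb and 1.87 for Lbp. The highest, 3.06 for Cfb and 2.75 for Lbp, came without Control 45, the highest Control library for these genes. Without Control 45, Fga was 12.8-fold higher in Model and 7.70-fold higher in QYD, if 3 counts are assumed over the other 2 Control libraries together. The exact 95% lower limits for counting error were 10.4-fold in Model and 6.18-fold in QYD. The ratios of the other chains then rested on 1 Control count each: 28.0 (95% exact interval 4.96 to 1112) for Fgb and 25.2 (4.47 to 1003) for Fgg in Model.

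**Figure D2:**
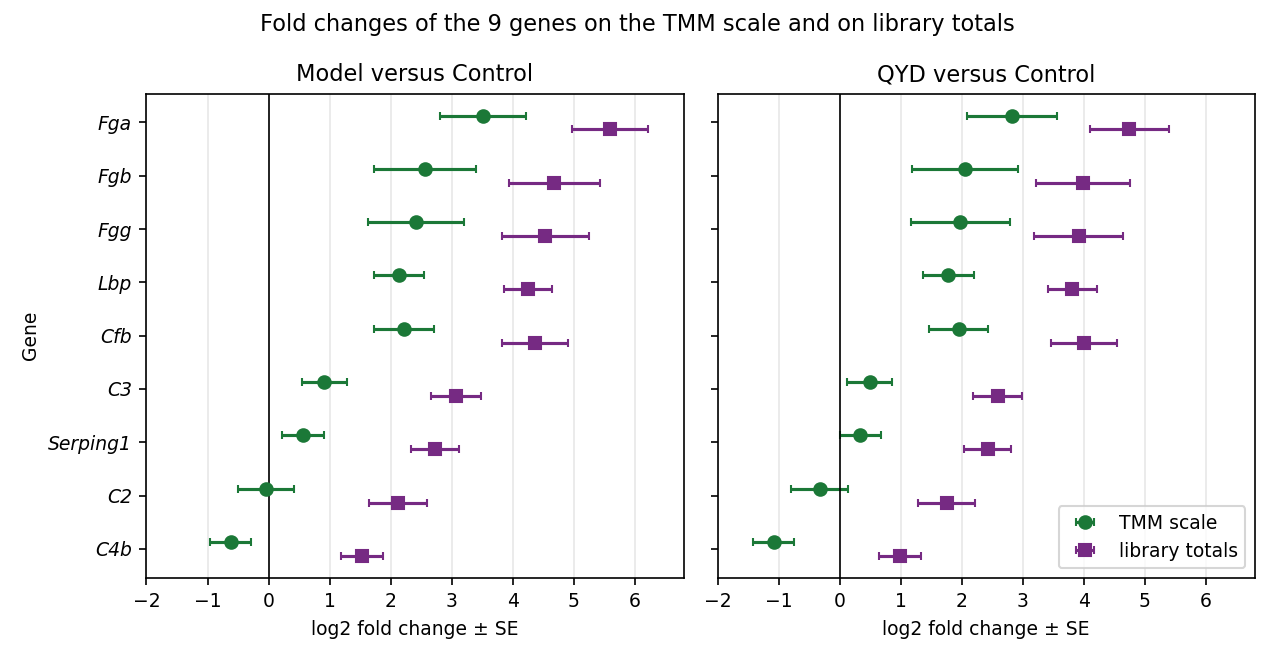
Log2 fold change with SE of each of the 9 genes (vertical axis lists the genes) in Model versus Control and QYD versus Control, on the TMM scale and on plain library totals, from edgeR fits to 9 libraries. On the TMM scale (circles) C4b and C2 lie below 0, and on library totals (squares) all 9 genes lie above 0.

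The scale decides how C3, Serping1, C2 and C4b read. On plain library totals all 9 genes were higher in Model versus Control, with log2 fold changes from 1.54 (C4b) to 5.60 (Fga), and all 9 in QYD versus Control, from 0.99 (C4b) to 4.74 (Fga), by edgeR's test. By that rule 94% and 93.8% of all tested genes were higher, so the count of 9 matches the background there. The median log2 fold change of the 9 was 4.25 on library totals against 2.19 for all genes in Model versus Control, and 3.81 against 2.09 in QYD versus Control. Lbp, Cfb, the 3 fibrinogen chains, C3 (3.07 and 2.59) and Serping1 (2.73 and 2.42) were above that median of all genes in both, and C4b and C2 were below it.

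Ratios within a library do not depend on the scale, and they are given as a description with no test. The Cfb count was 7.88, 9.01 and 25.5% of the C3 count in Control 43, 44 and 45, then 41.2, 35.3 and 32.4% in Model 56, 57 and 59 and 35.3, 44.2 and 41.8% in QYD 65, 66 and 68. All 6 libraries of caerulein-treated mice were above all Controls. The C4b count as a share of the C3 count moved the opposite way. It was 40.2, 54.8 and 34.6% in Control, 12.9, 14.3 and 15.7% in Model and 11.3, 17.2 and 15.4% in QYD. The groups of treated mice did not overlap Control. Before scaling, the C4b count itself was 526 to 643 in Control, 911 to 2554 in Model and 646 to 1415 in QYD. C2 was 3.22 to 4.89% of C3 in Control and 1.66 to 3.12% in the 6 other libraries, again with no overlap. Serping1 kept the narrowest ratio, 23.3 to 34.3% of C3 in Control, 18.1 to 23.0% in Model and 22.0 to 26.2% in QYD, and QYD overlapped Control. Lbp was 0.563 to 1.84% of C3 in Control and 1.84 to 4.21% in the 6 other libraries, where Model 57 reached only the level of Control 45.

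The adjacent genes C2 and Cfb, which encode related proteases of the classical and alternative pathways, moved apart. C2 counts were 57.1 and 54.3% of Cfb counts in Control 43 and 44 and 12.6% in Control 45. They were 5.30 to 6.43% in Model and 3.98 to 7.07% in QYD. The fibrinogen chains stayed near each other in counts, which are not corrected for transcript length. Fgb counts were 86.2 to 147% of Fgg counts in Model and 100 to 117% in QYD. Fga counts were 130 to 238% and 102 to 172% of Fgg counts. The highest of these ratios rested on 69 Fga and 29 Fgg counts in Model 59. By FPKM, Fga was 65.8 to 138% of Fgg in Model and 59.4 to 96.7% in QYD.

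**Figure D3:**
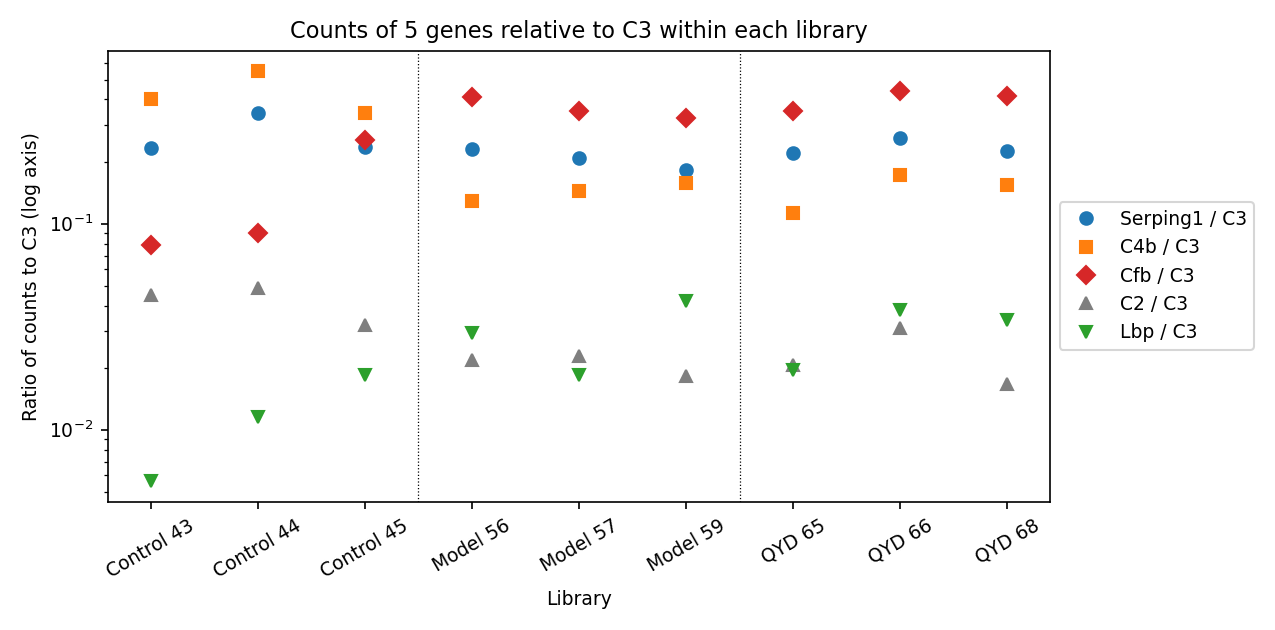
Counts of Cfb, C4b, Serping1, C2 and Lbp as a ratio to the C3 count in the same library (vertical axis, log scale), with 1 point per gene and library (horizontal axis). Cfb to C3 is 0.079 to 0.255 in Control and 0.324 to 0.442 in the 6 libraries of caerulein-treated mice, while C4b to C3 is 0.346 to 0.548 and 0.113 to 0.172.

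The second question is how the decoction bears on these genes. In QYD versus Control, 3 of the 9 were higher (Cfb, Lbp and Fga) and 1 was lower (C4b) by edgeR's test. Of all tested genes 20.5% were higher and 20.3% lower. The median log2 fold change of the 9 was 1.78 and that of all tested genes 0.06. With at least 5 CPM in 3 libraries, which dropped the fibrinogen chains, the median of the other 6 was 0.41. The ranges of Cfb, Lbp and Fga lay above Control (27.8% of all genes) and that of C4b below it (24.7%). QYD versus Control and Model versus Control share the 3 Control libraries.

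In QYD versus Model none of the 9 genes passed, and 0% of all tested genes did (edgeR, 12828 genes). At an unadjusted p under 0.05 there were 750 genes, none of them among the 9. DESeq2 also called none of the 9. All 9 log2 fold changes were negative, with a median of -0.42 against 0.01 for all genes. They ran from -0.22 ± 0.33 for Serping1 to -0.70 ± 0.41 for Fga, and the smallest adjusted p was 0.83 (edgeR, Fga, unadjusted 0.11). Fga was the 1 gene of the 9 whose QYD libraries were all below all Model libraries, at 0.91 to 2.01 against 2.38 to 2.71 CPM, and 8.18% of all genes had such a range. The 95% intervals were wide: -1.22 to 0.38 for C3, -1.19 to 0.26 for C4b, -1.28 to 0.73 for Cfb, -1.04 to 0.32 for Lbp and -1.59 to 0.19 for Fga.

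The negative sign rested partly on Model 57. Without that library the log2 fold changes in QYD versus Model were 0.03 for C3, 0.29 for C2, 0.17 for Cfb and 0.26 for Serping1. Without QYD 68, those of C2 and Serping1 were 0.06 and 0.04. C4b, Lbp and the fibrinogen chains stayed negative whichever library was left out, but most became small. Their weakest values were -0.02 for C4b and Fgb, -0.07 for Fgg, -0.09 for Lbp and -0.41 for Fga. Without Model 57 the median of the 9 genes was -0.02.

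Levels spread widely over the Model and QYD libraries when these were pooled. Over the 6 libraries of caerulein-treated mice the highest CPM was 3.38 times the lowest for C3, 3.16 times for C4b, 4.62 times for C2, 2.86 times for Cfb and 3.14 times for Serping1. Model 57 was the highest of the 6 for all 5 complement genes and QYD 68 the lowest. For Fga, Fgb, Fgg and Lbp the highest was 2.99, 4.70, 3.75 and 2.37 times the lowest. All of these folds include any difference between Model and QYD. Within Model alone, Fga ran only from 2.38 to 2.71 CPM. Model 57 was again the highest for Fga and Fgb, but Model 56 was for Fgg and Model 59 for Lbp, and QYD 65 was the lowest for the 3 chains and QYD 68 for Lbp.

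**Figure D4:**
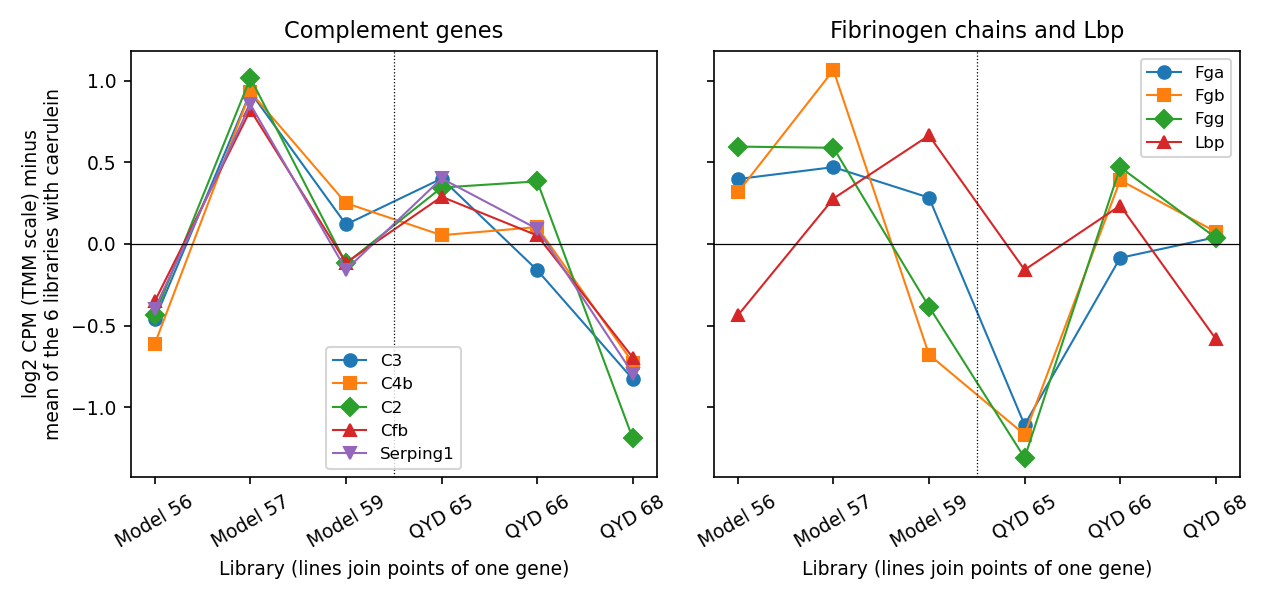
Deviation of log2 CPM (TMM scale, vertical axis) from the mean of the 6 libraries of caerulein-treated mice, for each gene and each of Model 56, 57 and 59 and QYD 65, 66 and 68. The 5 complement genes deviate together, with deviations of 0.82 to 1.02 in Model 57 and of -1.19 to -0.70 in QYD 68, while the fibrinogen chains are lowest in QYD 65.

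Complement genes and fibrinogen chains varied separately among these 6 libraries. Pearson's r of log2 CPM was 0.90 to 1.00 for the 10 pairs of complement genes and 0.72 to 0.93 for the 3 pairs of fibrinogen chains. Between the complement genes and the fibrinogen chains it was -0.17 to 0.24 (15 pairs). Lbp had 0.52 to 0.78 with the complement genes and -0.04 to 0.20 with the chains. Without Model 57 the first 2 ranges were 0.79 to 1.00 and 0.66 to 0.97, and the pairs between the blocks ran from -0.77 to -0.32. On plain library totals the same 3 ranges were 0.93 to 1.00, 0.74 to 0.94 and 0.01 to 0.35. These points share libraries and their depth, number 6 or fewer, and are given with no test. Over all 9 libraries, where the groups themselves differ, Fgb and Fgg had an r of 0.99. The blocks did not separate there. Pairs of complement genes ran from -0.42 to 0.92, and pairs between complement genes and chains from -0.64 to 0.91.

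The libraries highest in C2, Cfb and Serping1 were also high in markers of some cell types. For C3 and C4b, Model 59 was among the 3 highest of the 6. Model 57, QYD 65 and QYD 66 were the 3 highest of the 6 for C2, Cfb and Serping1, that is 3 of the 9 genes. The same held for 9.11% of all tested genes. Because these 3 libraries were singled out by the levels of the 9 genes themselves, these shares are a description and no test. Summed B cell markers were 24.0, 30.2 and 35.0 CPM in these 3 libraries and 0.97 to 2.35 CPM in the others. Summed macrophage and monocyte markers were 186, 155 and 160 against 90.4 to 129 CPM, and summed fibroblast and stellate markers 487, 493 and 379 against 276 to 355 CPM. Summed adipocyte markers had the same 3 libraries highest. Mesothelial, duct, neutrophil, endothelial, hepatocyte, islet and acinar sums did not have this order. The endothelial sum was lowest of the 6 in QYD 66, at 69.7 CPM. On plain library totals Model 56 was above QYD 66 for the fibroblast and stellate markers. The part of these cell types in the complement levels was not tested.

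Because the liver is the main source of these proteins, hepatocyte markers were read beside them. Of 22 listed markers 21 were in the table and 7 were tested. In Model versus Control 1 (Ahsg) was higher and 2 (Vtn and Ttr) were lower, against 21.3% and 21.3% of all tested genes. The summed level was 106 to 142 CPM in Control, 35.6 to 59.2 in Model and 34.3 to 49.9 in QYD on the TMM scale. Most of this fall lay in Vtn and Ttr. Their means were 62.2 and 18.9 CPM in Control and 7.51 and 2.91 CPM in Model, so the sum mainly follows these genes. The direction of the sum turned on plain library totals, with 42.1 to 51.9 CPM in Control, 64.5 to 102 in Model and 46.6 to 89.3 in QYD. On that scale 5 of the 7 tested markers were higher and 2 lower in Model versus Control. The part of hepatocyte RNA in the 9 genes was not tested. Alb, the albumin gene, had 3 to 11 counts in Control, 0 to 9 in Model and 1 to 7 in QYD. Cps1 and Mup20 had at most 2 counts in any library, and Cyp3a11 and Apoa1 at most 10 and 16. Ahsg, which encodes the liver glycoprotein fetuin-A, was the exception. It had 1 to 5 counts in Control, 81, 84 and 173 in Model and 36, 114 and 119 in QYD, with a log2 fold change of 3.17 ± 0.81 in Model versus Control (adjusted p = 0.0089, edgeR).

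Neutrophil markers were higher as a list, with 9 of 11 tested members higher and none lower in Model versus Control and in QYD versus Control. Their sums were 10.1 to 40.8, 134 to 190 and 155 to 287 CPM in Control, Model and QYD. Markers of acinar cells, the main tissue of the pancreas, were lower for 20 of 20 members in Model versus Control. Duct markers had 6 of 10 higher and 1 lower, macrophage and monocyte markers 6 of 12 higher and 2 lower, and mesothelial markers 1 of 7 higher and 2 lower. The 1 higher mesothelial marker was Krt19, which the duct list also holds. Fibroblast and stellate markers had 3 of 11 higher and 3 lower, endothelial 2 of 10 higher and 2 lower, adipocyte 0 of 8 higher and 3 lower, islet 0 of 10 higher and 7 lower, and B cell 0 of 8 in either direction. These counts are on the TMM scale. There 21.3% of all tested genes were higher and 21.3% lower in Model versus Control, and the endothelial counts lie near these shares. In QYD versus Control the shares were 20.5% and 20.3%. Scaled to plain library totals, 17 of 20 acinar markers were lower and 2 higher. Of all tested genes, 94% were higher on that scale, so a list with nearly all members higher matches the background. By the same scale the higher counts were 11 of 11 neutrophil, 12 of 12 macrophage and monocyte, 11 of 11 fibroblast and stellate, 9 of 10 duct, 9 of 10 endothelial, 4 of 7 mesothelial and 5 of 10 islet markers, with none lower in these lists. Adipocyte markers then had 1 of 8 higher and 1 lower, and B cell markers 0 of 8 in either direction. The part of any of these cell types in Cfb, Lbp and fibrinogen was not tested.

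Other genes of complement activation gave no call. Of 24 listed, 21 were in the table and 10 were tested. In both comparisons with Control 0 of the 10 passed by edgeR, with medians of -0.50 in Model and -0.25 in QYD. Among all tested genes 21.3% were higher and 21.3% lower in Model, and 20.5% and 20.3% in QYD. Those with the smallest p in Model versus Control were C1qc (-0.92 ± 0.37, adjusted p = 0.066), a chain of the C1q starter, and Fcna (-1.59 ± 0.65, adjusted p = 0.072), a lectin of the ficolin family. Cfd, the factor D protease that cuts factor B and is also an adipocyte product, had -2.02 ± 1.02 (adjusted p = 0.14), and C1ra, a C1 protease that Serping1 inhibits, had 0.75 ± 0.39 (adjusted p = 0.15). On plain library totals 7 of the 10 were higher in Model and 8 in QYD, against 94% and 93.8% of all tested genes. The summed level of the list was 180, 166 and 133 CPM in Model 57, QYD 65 and QYD 66 and 66.9 to 72.3 CPM in the other 3 libraries of caerulein-treated mice.

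Regulators and receptors of complement were mixed. Of 13 tested, 3 were higher and 2 lower in Model versus Control, and 5 higher and 2 lower in QYD versus Control (edgeR). Among all tested genes 21.3% were higher and 21.3% lower in Model, and 20.5% and 20.3% in QYD. The Model counts of this list lie near those shares. Itgam, a chain of the receptor for C3 fragments on myeloid cells, had 10.1 ± 9.7 CPM (SD, n = 3) in Control against 50.0 ± 16.8 CPM in Model, and its log2 fold change was 2.30 ± 0.49. C5ar1, the receptor for the C5a fragment, rose by 1.80 ± 0.41. Vtn, vitronectin, which blocks the terminal complex, fell from 62.2 ± 9.1 to 7.51 ± 2.54 CPM, a log2 fold change of -3.05 ± 0.24. Cd59a, another inhibitor of the terminal complex, had -1.21 ± 0.26, and on plain library totals its direction turned to 0.93 while that of Vtn stayed at -0.92.

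Of 19 tested genes of coagulation and fibrinolysis, 7 were higher and 2 lower in Model versus Control, and 8 and 2 in QYD versus Control. The shares of all tested genes were 21.3% and 21.3% in Model, and 20.5% and 20.3% in QYD. Procr, the endothelial protein C receptor, rose by 2.48 ± 0.46 on the log2 scale in Model. Plaur, the urokinase receptor, rose by 1.83 ± 0.36 and Tgm2, a transglutaminase, by 1.18 ± 0.17. The 2 lower genes were F2 (-1.55), which encodes prothrombin, and Plau (-1.45), which encodes urokinase, on the TMM scale. Their log2 fold changes were 0.57 and 0.71 on plain library totals, and both were singled out after their values were seen.

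Genes that recognise LPS were higher beside Lbp. Of 10 tested, 6 were higher and none lower in each comparison with Control, with medians of 1.02 and 1.06. Higher calls took 21.3% of all tested genes in Model and 20.5% in QYD. Cd14, the receptor that takes LPS from Lbp, had 14.8 ± 14.0 CPM in Control, 109 ± 8.59 in Model and 98.3 ± 12.9 in QYD (SD, n = 3), a log2 fold change of 2.88 ± 0.48 in Model. Ly96, the TLR4 partner MD-2, rose by 1.28, and the adaptors Myd88 and Tirap by 1.34 and 1.36.

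The cytokine pathways known to drive acute-phase genes were read as a further list. Of 24 tested genes of IL-6, C/EBP, STAT3 and interferon-gamma control, 16 were higher and 3 lower in Model versus Control (edgeR). In QYD versus Control 18 were higher and 3 lower. The shares of all tested genes were 21.3% and 21.3% in Model, and 20.5% and 20.3% in QYD. Lif, a cytokine of the IL-6 family, had 0.17 ± 0.07 CPM (SD, n = 3) in Control against 3.60 ± 1.38 CPM in Model, and its log2 fold change was 4.32. Osmr, the oncostatin M receptor, rose by 2.22, Socs3, a STAT3 target that limits its signal, by 2.58, and Stat3 by 1.08. In QYD versus Model, 0 genes of any of these 5 lists passed. Scaled to library totals, the genes higher and lower in Model versus Control were 11 and 1 of 13 for regulators and receptors, 17 and 0 of 19 for coagulation and fibrinolysis, 10 and 0 of 10 for LPS recognition and 24 and 0 of 24 for this last list. These counts match the background of that scale, on which 94% of all tested genes were higher.

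Patterns most like each of the 9 were sought by Pearson's r of log2 CPM over the 9 libraries among 11222 genes, as a description that includes the differences between groups. Cfb was most like Ripk3 and Fcgr1 (0.99 each), and Lbp most like Ace (0.99) and Kng2 (0.98), the latter a kininogen of the coagulation list. Fgb and Fgg were each other's closest gene. Serping1 was most like C1ra (0.97), and C2 most like C1s1 and Cd74 (0.93 each). C3 was most like Ermp1 (0.97) and C4b most like Sec16a (0.94), while Fga was most like 4930539E08Rik (0.99).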

How the data were processed

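Trizol extraction and oligo(dT) selection are per the labels' protocols. HISAT2 2.0.4, Bowtie2 2.2.5, RSEM 1.2.12 and build GRCm38.p6 are listed in the submitters' processing notes with no role for any tool. Strandedness was not given in the sources used here. Per the file headers the authors deposited read counts, taken here as estimated counts, because 93.5% of values were whole. The authors also deposited FPKM values, per the file headers, used here for order within a library and in limma. TPM values were deposited by the authors and not used, nor were their group means.

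Counts were rounded and fitted in edgeR 4.0.16 (R 4.3.3), with TMM scaling, default expression filter, 1 quasi-likelihood model over 9 libraries with group as its term, and a Benjamini-Hochberg threshold of 0.05. The fit was tested on simulated data. Alternatives used DESeq2 1.42.0, limma 3.58.1, other scalings and filters, and each library left out. Correlations used a prior count of 2. The genes, lists and rules were chosen with earlier results of these data known: all 9 genes, and up to 4 genes per list with the smallest p in Model versus Control and a mean of at least 1 CPM. A gene that this rule names is not reported here. For pattern likeness the 3 highest r per gene were computed. Motif windows are RefSeq's, and 50-base stretches came from GENCODE transcripts.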

Additional observations from a re-analysis of the deposited data

How the results depend on the processing

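No paired analysis was possible because the library numbers in the titles are not shared between groups. In Model versus Control, all genes called higher and lower numbered 2736 and 2728 in edgeR, 12064 and 121 on library totals, 4646 and 1693 on library totals without the 50 most abundant genes (chosen after seeing the data), 9981 and 102 with limma on log2(FPKM + 1), and 9986 and 100 on log2(FPKM + 0.1). In QYD versus Control they were 2624 and 2598, 12028 and 127, 4511 and 1662, 9974 and 103, and 9968 and 103. Of the 9 genes, 9 were higher and 0 lower in both comparisons on library totals and in both FPKM fits. With at least 5 CPM in 3 libraries the fibrinogen chains were not tested, and 2 of the 6 others were higher in Model. In QYD versus Control 5 were higher with DESeq2, and 5 higher with 0 lower on library totals without the 50 most abundant genes. Leaving out a library gave 3 to 6 higher and 0 to 1 lower in Model, and 3 to 5 and 0 to 1 in QYD. In QYD versus Model each FPKM fit called 1 gene lower, none of the 9 among them.

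Directions turned for C4b in Model (1.54 on library totals, 1.27 and 1.39 with FPKM + 1 and + 0.1) and QYD (0.99, 0.81 and 0.90) versus Control. C2 turned in Model (2.12, 1.38 and 1.90, 0.25 without the 50 most abundant genes, 0.013 with no filter, 0.20, 0.22 and 0.12 without Control 43, Model 56 and Model 59) and QYD (1.75, 1.07 and 1.49, and 0.023 without QYD 68). In QYD versus Model the reversals were C3 0.032, C2 0.29, Cfb 0.17 and Serping1 0.26 without Model 57, and C2 0.06 and Serping1 0.04 without QYD 68. With a library left out, the lowest log2 fold changes were -0.61 (Model) and -0.55 (QYD) for C2 versus Control, and in QYD versus Model -0.76 for C3, -0.55 for C2, -0.49 for Cfb and -0.49 for Serping1. The cause was not tested, apart from the scale to library totals that the FPKM and total fits share. Fitting only the compared groups, RLE scaling and TMM factors computed without the 50 most abundant genes left every call of the 9 genes as it was. Counts of 0 to 6 in Control limit the fibrinogen chains.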
